A study of Homo sapiens with 6 samples.

Results

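The liver X receptors (LXRs) and the genes through which cells export or store sterol were followed in DU145 cells, a human prostate cancer line, after treatment with taraxasterol (TAX), a pentacyclic triterpene. The 9 genes were taken by symbol from a list set up for these roles and not by a cut on their values. Earlier results of these data were known when the list was chosen. They are the receptors NR1H3 and NR1H2, the sterol efflux genes ABCA1, ABCG1 and APOE, the other LXR targets MYLIP, SMPDL3A and LPCAT3, and SOAT1, which esterifies cholesterol. All 9 were present among the 23062 identifiers of each library. RNA was sequenced from 3 control libraries (control replicates 1 to 3, kept in MEM medium for 48 h) and 3 libraries of cells given TAX at its IC50 for 48 h (TAX replicates 1 to 3). Both groups were the same wild-type line in MEM with serum, and no label names a solvent control, although TAX was dissolved in DMSO, so effects of TAX and of the solvent cannot be told apart. Nothing says whether replicates were separate cultures, so p-values measure only the spread between these libraries.

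LXRs are nuclear receptors that bind oxysterols, the oxidized forms of cholesterol, and act on DNA as partners of retinoid X receptors (RXRs). When sterol is abundant they switch on genes that move cholesterol out of the cell (ABCA1, ABCG1, APOE), limit the uptake of lipoproteins (MYLIP) and remodel membrane phospholipids (LPCAT3). SREBP2 works in the opposite direction, since it switches on cholesterol synthesis and uptake when sterol in the endoplasmic reticulum is low. The 9 genes were chosen so that SREBP targets were left out.

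LXR and RXR together recognize a direct repeat of the half-site AGGTCA with 4 bases between the copies, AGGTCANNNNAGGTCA. The repeat was searched for on both strands of RefSeq promoter windows (GRCh38.p14, 250 bases before to 50 bases after each annotated start), with up to 2 mismatches in its 12 fixed letters. Windows were found for 7 of the 9 genes, 12 windows in all, and 1 of them held a match. It was the promoter of ABCA1, at chr9:104928209-104928224, and the match began 69 bases before the annotated start, on the strand opposite to the gene. Of all 35116 windows, 2.34% held such a match. The ABCA1 window is shown because this gene is the textbook LXR target among the 9. It covers chr9:104928106-104928405 and is written along the minus strand, the gene's strand, with the 16 matching bases in capitals.
ABCA1 promoter: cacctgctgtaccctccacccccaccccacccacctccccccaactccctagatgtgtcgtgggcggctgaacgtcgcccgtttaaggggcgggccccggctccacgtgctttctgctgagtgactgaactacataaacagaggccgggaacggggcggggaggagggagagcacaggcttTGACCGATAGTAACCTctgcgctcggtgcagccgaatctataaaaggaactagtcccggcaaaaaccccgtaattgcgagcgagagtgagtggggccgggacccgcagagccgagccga
The next lines give the match read on its own strand and the closest stretches of MYLIP and LPCAT3, with the 2 half-site positions in capitals. The first differs from the repeat at 2 of 12 letters and the others at 4, which was also the median of the best stretch over all windows.
ABCA1: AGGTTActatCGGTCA
MYLIP: CGGCCAgggaAACTCA
LPCAT3: AGGTAGgaagAGGGCG
These are matches of letters only, and binding was not measured.

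The values were taken as FPKM (fragments scaled to transcript length and to the total of the library), so levels can be compared between genes. In bulk RNA, fewer cells that express a gene and less of its RNA per cell cannot be told apart. The summed FPKM ranged from 322483 to 363724 per library, and read depth is unknown. Control replicate 3 had the lowest sum and the lowest of the 3 control values for 72.3% of the 12359 tested genes, and results are given without it where this matters. The 5 epithelial markers EPCAM, CDH1, KRT8, KRT18 and KRT19 were all above 1 FPKM in every library, with sums of 428 to 545 FPKM in control and 555 to 606 FPKM in TAX-treated cells. Among luminal markers of prostate epithelium, KLK3 and KLK2 were listed at 0 throughout and TMPRSS2 did not exceed 0.0191 FPKM. Of 5 leukocyte markers only CD68, which is also a lysosomal gene, was above 1 FPKM in every library, at 20.01 to 26.7 FPKM in control and 32.5 to 33.4 FPKM in TAX-treated cells (adjusted p = 0.0884, limma), and PTPRC did not exceed 0.00692 FPKM. Of 5 fibroblast markers only COL1A1 passed 1 FPKM in every library, at 1.89 to 2.08 FPKM in control and 1.42 to 1.48 FPKM in TAX-treated cells, and COL1A2 and DCN were listed at 0. The summed leukocyte markers, nearly all CD68, lay at 20.5 to 27.0 FPKM in control and 32.9 to 34.1 FPKM in TAX-treated cells, and the summed fibroblast markers at 1.94 to 2.12 and 1.495 to 1.58 FPKM. The part of these shifts in the results that follow was not tested.

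No test found a difference between TAX-treated and control cells for any of the 9 genes. On the log2(FPKM + 1) scale, 0 of the 9 genes had an adjusted p under 0.05 by limma, where 0.477% of the 12359 tested genes did. At an unadjusted p under 0.05 the count was again 0 of 9, beside 10.1% of all tested genes. The values of the 2 groups overlapped for all 9 genes, whereas 17.9% of tested genes did not overlap. ABCG1 lay below the filter of 1 FPKM in at least 3 libraries and was tested in a second fit to which such genes were added. The log2 fold changes lay between -0.09 and 0.07, 5 of them above 0 and 4 below 0, and with each library centred on its median 4 of the former (NR1H2, ABCA1, SMPDL3A and SOAT1) were below 0 as well. No direction is therefore given for a single gene. Without centring they had a median of 0.0034, and the median of all tested genes was 0.054. The median size of the change, without its sign, was 0.027 for the 9 genes and 0.086 for all tested genes. The added 1 draws the log2 fold changes of genes at low FPKM toward 0. With a pseudocount of 0.1, that of ABCG1 was -0.137 in place of -0.032, and that of APOE 0.101 in place of 0.074. The 95% intervals of the 9 genes reached from 0.801-fold (MYLIP) to 1.28-fold (APOE) in FPKM + 1. With 3 libraries per group, a change within the interval of a gene is compatible with its values.

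**Figure D1:**
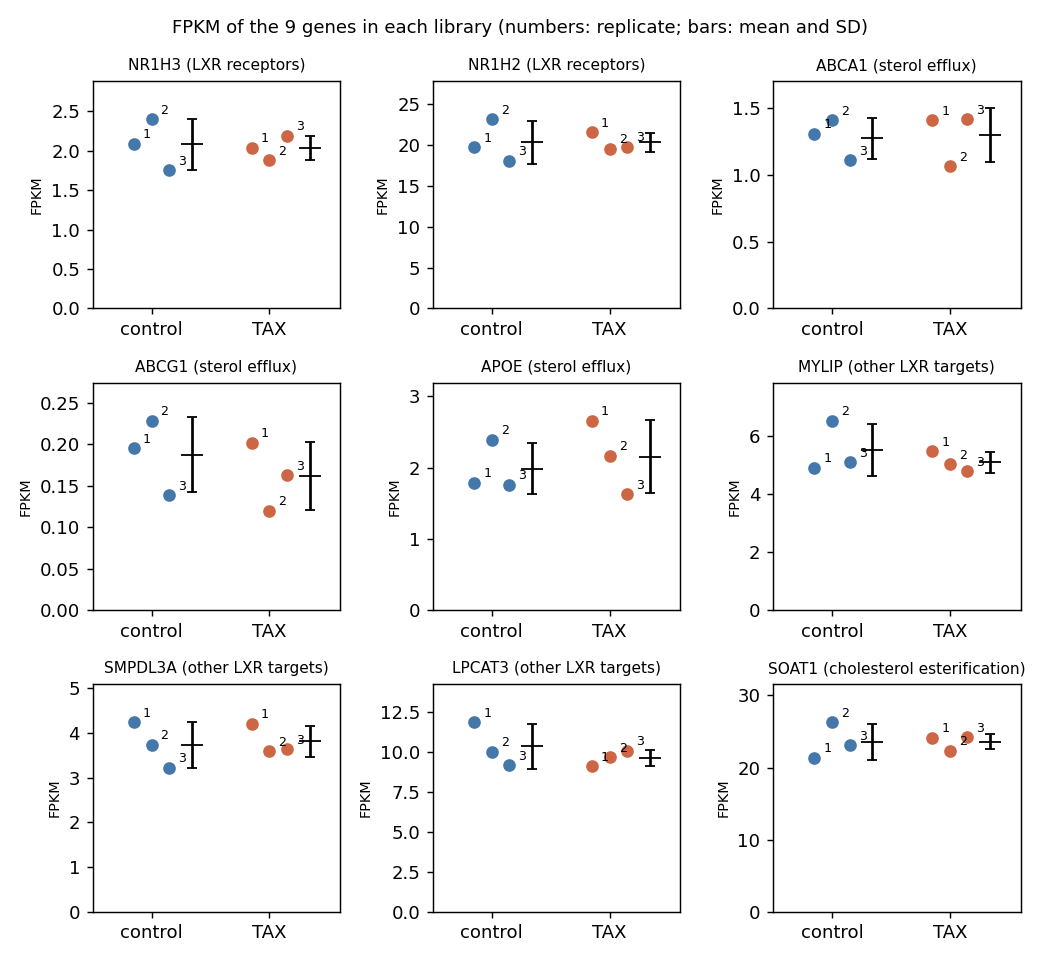
FPKM of each of the 9 genes (y axes, starting at 0) in the 3 control (blue) and 3 TAX libraries (orange), with the replicate number beside each point and black bars for the mean and SD. For each gene the points of both groups cover overlapping ranges.

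The receptors come first. Positions are those of GENCODE 29 on GRCh38. NR1H2 (chr19:50329653-50382982, plus strand) encodes LXRβ, the form found in most tissues. Its FPKM was 19.7, 23.2 and 18.1 without TAX and 21.6, 19.6 and 19.8 with TAX, in the order of the replicate numbers, as for all values below. The 3 TAX values all fell inside the range of the controls, whose highest and lowest libraries were replicates 2 and 3. Mean levels were 20.3 ± 2.61 and 20.3 ± 1.12 FPKM (SD, n = 3 each), and the log2 fold change was 0.0052 (adjusted p = 0.987, limma, with a standard error of 0.098). NR1H3 (chr11:47248300-47269032, plus strand) encodes LXRα, known best from liver, fat and macrophages. It was measured at 2.09, 2.40 and 1.75 FPKM without TAX and 2.04, 1.88 and 2.19 FPKM with TAX. Again every TAX value lay within the control range, and the log2 fold change was -0.016 (standard error 0.096, adjusted p = 0.964, limma). Per length, NR1H2 exceeded NR1H3 in each of the 6 libraries, by 9.44, 9.65 and 10.3 times in the controls and by 10.6, 10.4 and 9.04 times after TAX treatment. The ratio did not differ between the groups beyond its spread (exact permutation test, two-sided p = 0.8, where 0.1 is the smallest p that 3 against 3 can give).

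The efflux genes were low in these cells. ABCA1 (chr9:104781002-104928237, minus strand) is the membrane transporter that loads cholesterol onto lipid-poor apolipoprotein A-I. Its level was 1.31, 1.41 and 1.11 FPKM without TAX and 1.41, 1.06 and 1.42 FPKM with TAX. TAX replicate 2 was the lowest of all 6 libraries and TAX replicate 3 the highest, so the groups lay over each other. Means were 1.27 ± 0.153 and 1.30 ± 0.202 FPKM (SD, n = 3 each), and the log2 fold change was 0.012 with a 95% interval from -0.20 to 0.22 (adjusted p = 0.970, limma). The added 1 in log2(FPKM + 1) narrows that interval for a gene at this level. With a pseudocount of 0.1 in its place, the log2 fold change of ABCA1 was 0.018 and its interval ran from -0.34 to 0.37.

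ABCG1 (chr21:42199689-42297244, plus strand) transfers cholesterol to HDL particles. It was close to the lower end of the scale, at 0.195, 0.229 and 0.139 FPKM without TAX and 0.202, 0.120 and 0.163 FPKM with TAX. The highest library was control replicate 2 and the lowest TAX replicate 2, and the TAX mean was 0.860 times the control mean (exact permutation test, two-sided p = 0.5). With a pseudocount of 0.1 the interval of ABCG1 ran from -0.71 to 0.44 on the log2 scale, the widest of the 9 genes. A moderate change in either direction is therefore compatible with its values. ABCA1 exceeded ABCG1 by 6.16 to 7.98 times in the control and by 6.98 to 8.88 times in the TAX libraries. APOE (chr19:44905754-44909393, plus strand) encodes a secreted apolipoprotein that accepts cholesterol. Its FPKM was 1.79, 2.40 and 1.76 without TAX and 2.66, 2.17 and 1.63 with TAX. TAX replicate 1 held the highest and TAX replicate 3 the lowest value of all, so that the spread of the TAX group contained the controls. APOE had the largest positive log2 fold change of the 9, 0.074, with a 95% interval from -0.21 to 0.36 (adjusted p = 0.854, limma). Without TAX replicate 1 this value was -0.040.

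MYLIP (chr6:16129125-16148248, plus strand), also known as IDOL, is a ubiquitin ligase that marks lipoprotein receptors for degradation. It was measured at 4.91, 6.53 and 5.09 FPKM without TAX and 5.47, 5.02 and 4.77 FPKM with TAX. Control replicate 2 stood above the other libraries, which lay between 4.77 and 5.47 FPKM. The log2 fold change of MYLIP was -0.090 (standard error 0.10, adjusted p = 0.783, limma), and without control replicate 2 it was 0.019. SMPDL3A (chr6:122789049-122809720, plus strand) encodes a secreted phosphodiesterase related to acid sphingomyelinase. Its values were 4.24, 3.73 and 3.22 FPKM without TAX and 4.21, 3.59 and 3.63 FPKM with TAX, and all TAX values fell inside the control range. LPCAT3 (chr12:6976186-7018510, minus strand) places polyunsaturated fatty acids into membrane phospholipids. It was found at 11.9, 10.04 and 9.17 FPKM without TAX and 9.13, 9.68 and 10.1 FPKM with TAX. Control replicate 1 was the highest of the 6, and without it the log2 fold change of LPCAT3 moved from -0.089 to 0.0052. With all libraries its adjusted p was 0.774 (limma), the smallest of the 9 genes. LPCAT3 overlaps EMG1 and C1S on the opposite strand, and NR1H3 overlaps ACP2 in the same way. NR1H2 overlaps NAPSA, also on the opposite strand. Whether counting used strand is not stated, so a part of these reads is of uncertain origin.

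SOAT1 (chr1:179293714-179358680, plus strand), the enzyme that turns cholesterol into esters for storage in droplets, was the highest of the 9 genes. It had 21.3, 26.3 and 23.1 FPKM without TAX and 24.2, 22.3 and 24.2 FPKM with TAX. The controls spread on both sides of the TAX libraries. Means were 23.6 ± 2.51 and 23.6 ± 1.06 FPKM (SD, n = 3 each), and the log2 fold change of 0.0034 was the smallest of the 9 (adjusted p = 0.992, limma). Its interval, -0.20 to 0.21, corresponds to 0.871-fold to 1.15-fold in FPKM + 1.

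In the order of control levels SOAT1 was followed by NR1H2 (20.3 FPKM), LPCAT3 (10.4), MYLIP (5.51), SMPDL3A (3.73), NR1H3 (2.08), APOE (1.98), ABCA1 (1.27) and ABCG1 (0.188 FPKM). Of all identifiers, 87.6% had a lower control mean than SOAT1, 48.6% a lower one than ABCA1 and 32.7% a lower one than ABCG1. Neighbours in this order had separate ranges in the control libraries, except for SOAT1 with NR1H2 and NR1H3 with APOE. SOAT1 was above NR1H2 in all 6 libraries, but NR1H3 was above APOE in only 3 of 6, so these 2 genes cannot be ordered. Each other neighbouring pair kept its order in all 6 libraries.

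For each of the 9 genes the SD of the controls exceeded the difference between the group means. The control SD was between 10.7% and 24.2% of the mean over the 9 genes, and the TAX SD between 4.51% and 25.4%. Control replicate 2 held the highest control value for 7 of the 9 genes, against 44.6% of all tested genes, and control replicate 3 the lowest for 7 of the 9, against 72.3% of all tested genes. All 9 genes lay below their control mean in control replicate 3. Averaged over the 9 genes, control replicates 1, 2 and 3 deviated from the control mean by -0.00054, 0.11 and -0.11 and TAX replicates 1, 2 and 3 by 0.056, -0.062 and -0.029 on the log2(FPKM + 1) scale. For all tested genes, the median deviation was 0.051, 0.048 and -0.099 in the control and 0.054, 0.061 and 0.050 in the TAX libraries. Without control replicate 3, 0 of the 9 genes passed either threshold (limma). Only APOE then had a log2 fold change above 0 (0.022), and the median of all tested genes was 0.0058.

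**Figure D2:**
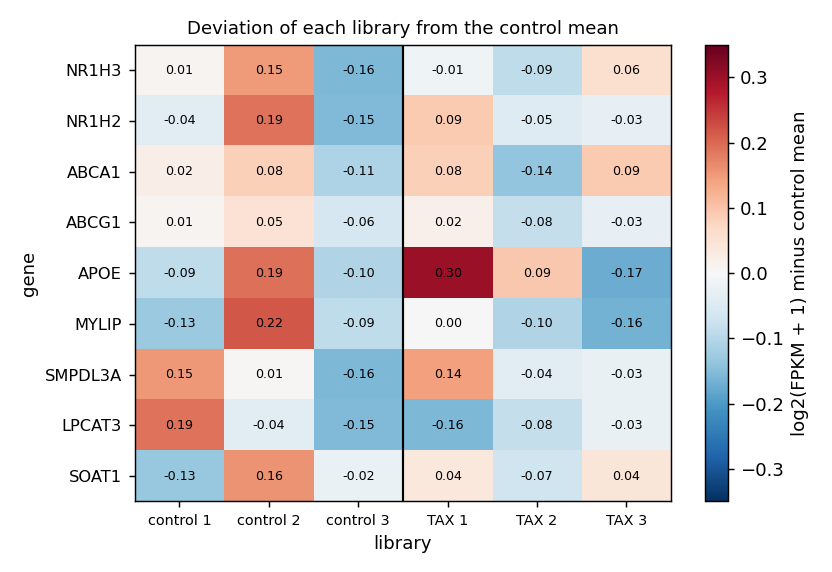
Difference of log2(FPKM + 1) from the control mean for the 9 genes (rows) in the 6 libraries (columns, control left of the line and TAX right of it), as numbers and colour. Control replicate 2 is mostly above and control replicate 3 entirely below the control mean, and the TAX columns hold values on both sides of it.

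By profile, the tested genes most like ABCA1 over the 6 libraries were ADCY9, SGTB and CRYBG3. The root mean square difference of their centred log2(FPKM + 1) values from those of ABCA1 was 0.014, 0.019 and 0.019, while the median over 12358 genes was 0.12. They were picked for this likeness among all tested genes, and 6 libraries allow many close matches.

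The other genes of the pathway came from a list of 64 genes of LXR partners, further LXR targets, oxysterol metabolism, sterol transport, esterification and the receptors that MYLIP marks. Of these, 48 passed the filter on low values, 11 were below it with some signal, and 5 (APOC2, APOD, CYP7B1, CYP11A1 and CES1) were listed at 0 in every library. By limma 0 of the 48 had an adjusted p under 0.05. At an unadjusted p under 0.05, 1 of the 48 was higher, beside 7.73% of all tested genes, and 5 were lower, beside 2.41%. Without control replicate 3, 9 of the 48 had an unadjusted p under 0.05, and leaving out control replicate 1, TAX replicate 1 or TAX replicate 2 left 3, 3 and 2. The share of all tested genes at this threshold was computed for the main fit only. These counts, and later ones under alternatives at this threshold, therefore have no background share beside them. The median log2 fold change of the 48 was 0.028, against 0.054 for all tested genes.

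LXR needs an RXR partner, and 2 of the 3 RXR genes were expressed. RXRA had 7.30, 8.26 and 6.67 FPKM without TAX and 7.84, 7.51 and 7.42 FPKM with TAX, and RXRB had 9.99, 12.1 and 9.98 FPKM without TAX and 11.1, 11.6 and 11.7 FPKM with TAX. For both genes the groups overlapped (adjusted p = 0.908 and 0.724, limma). RXRG was listed at 0 in 5 of the 6 libraries and at 0.0104 FPKM in control replicate 3. Of 11 tested partners and coregulators 1 was lower at an unadjusted p under 0.05 and 0 were higher. It was TBL1XR1, a subunit of the NCOR corepressor complex, whose log2 fold change was -0.18 (SE 0.081, unadjusted p = 0.0456, adjusted p = 0.486, limma). With any single library other than control replicate 3 left out, TBL1XR1 no longer passed (unadjusted p = 0.0566 to 0.164, limma).

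Of 16 further LXR targets 9 were tested, and 2 were lower at an unadjusted p under 0.05. SCD, the stearoyl-CoA desaturase that SREBP1 also controls, had 273, 289.9 and 234 FPKM without TAX and 211, 189 and 200.3 FPKM with TAX. Every TAX library lay below every control library, and the log2 fold change of SCD was -0.40 (standard error 0.10, unadjusted p = 0.00256, adjusted p = 0.181, limma). After median centring or quantile normalization the adjusted p of SCD was 0.0329 and 0.0403 (limma), and with each library left out in turn its unadjusted p stayed between 0.00026 and 0.0134. MLXIPL encodes ChREBP, a factor that responds to glucose. It was measured at 2.47, 1.86 and 1.78 FPKM without TAX and 1.40, 1.54 and 1.52 FPKM with TAX, also without overlap (log2 fold change -0.28, unadjusted p = 0.0155, adjusted p = 0.373, limma). Control replicate 1 was its highest library, and without it the log2 fold change of MLXIPL was -0.18 (unadjusted p = 0.0552, limma). SREBF1, an LXR target and the gene of SREBP1, was at 10.05, 10.6 and 7.97 FPKM without TAX and 10.3, 9.12 and 9.33 FPKM with TAX. The TAX values lay inside the control range, with a log2 fold change of 0.011 (adjusted p = 0.975, limma).

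Among 16 tested genes of sterol transport 1 was higher and 1 lower at an unadjusted p under 0.05. TSPO, an outer mitochondrial membrane protein that binds cholesterol, had 46.4, 55.3 and 49.6 FPKM without TAX and 60.3, 63.4 and 54.9 FPKM with TAX (log2 fold change 0.24, unadjusted p = 0.0282, adjusted p = 0.432, limma). Its control replicate 2 was just above TAX replicate 3. TSPO no longer passed with quantile normalization (log2 fold change 0.16, unadjusted p = 0.0734, limma) or median centring (0.18, unadjusted p = 0.0703), nor without control replicate 1, TAX replicate 1 or TAX replicate 2 (unadjusted p = 0.103, 0.0827 and 0.106). STARD4, a cytosolic sterol carrier that SREBP2 controls, had 13.0, 17.6 and 13.8 FPKM without TAX and 12.7, 10.6 and 12.2 FPKM with TAX (log2 fold change -0.29, unadjusted p = 0.0295, adjusted p = 0.437, limma). Without control replicate 2, its highest library, the log2 fold change of STARD4 was -0.17 (unadjusted p = 0.127, limma). STARD4 also no longer passed without TAX replicate 2 (-0.22, unadjusted p = 0.113) or with no filter on low values (unadjusted p = 0.0559). For TSPO 1 control library reached the TAX range, while for STARD4 the groups were separate. Of 5 tested genes of esterification and hydrolysis, ACSL3, which activates fatty acids for lipid droplets, was lower (log2 fold change -0.19, unadjusted p = 0.0378, adjusted p = 0.463, limma). With any single library other than control replicate 3 left out, ACSL3 no longer passed (unadjusted p = 0.0716 to 0.144, limma). SOAT2, the paralog of SOAT1, was listed at 0 in 5 of the 6 libraries. Oxysterol synthesis and removal had 4 tested genes and 0 at an unadjusted p under 0.05. CH25H, which makes the LXR ligand 25-hydroxycholesterol, was below the filter.

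**Figure D3:**
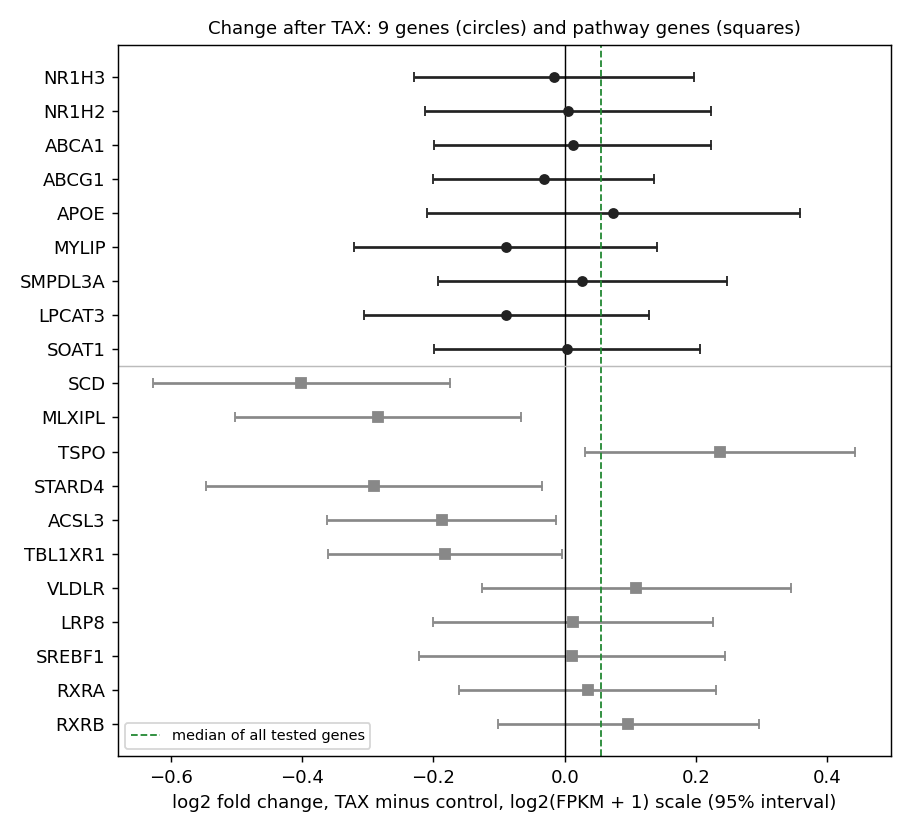
Log2 fold change (x axis, TAX minus control, log2(FPKM + 1) scale) with 95% intervals for the 9 genes (circles) and the named pathway genes (squares), with the median of all tested genes as a dashed line. The intervals of the 9 genes all include 0, while those of SCD, MLXIPL, STARD4, ACSL3 and TBL1XR1 lie below 0 and that of TSPO above it.

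VLDLR and LRP8, lipoprotein receptors that MYLIP marks, are read beside it. VLDLR was at 16.8, 18.2 and 17.1 FPKM without TAX and 17.5, 16.9 and 22.4 FPKM with TAX, with TAX replicate 3 above the rest. LRP8 had 24.3, 20.3 and 19.5 FPKM without TAX and 20.05, 22.3 and 22.1 FPKM with TAX. Neither VLDLR nor LRP8 differed in RNA beyond its spread (adjusted p = 0.741 and 0.969, limma). MYLIP acts on the receptor proteins, which were not measured here, so these values do not show its effect.

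The list of 20 SREBP2 targets, which shares no gene with the 9, was set beside them because both programs respond to sterol. Of its 19 tested genes 18 had a log2 fold change below 0, and 13 were lower and 0 higher at an unadjusted p under 0.05, beside 2.41% and 7.73% of all tested genes. For 1 of the 19 the adjusted p was under 0.05 (limma), beside 0.477% of all tested genes. The median log2 fold change was -0.29 for the SREBP2 targets and 0.0034 for the 9 LXR and efflux genes. Leaving out each library in turn gave 9 to 17 lower genes of the list, and 17 without control replicate 3. The list was drawn up with its result in these libraries known, so it is not independent evidence of a direction, and the difference between the 2 lists was not tested.

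**Figure D4:**
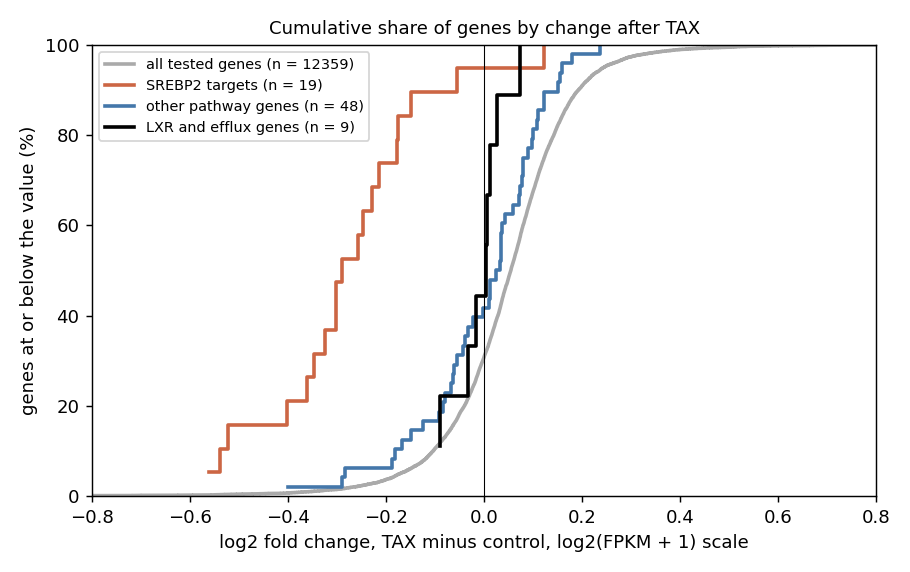
Share of genes (y axis, %) with a log2 fold change at or below the value on the x axis, for the 9 LXR and efflux genes, 48 tested pathway genes, 19 tested SREBP2 targets and all 12359 tested genes. The 9 genes lie close to 0, and the curve of the SREBP2 targets, a list that shares 2 genes with the pathway list, lies to the left of the others except at its highest gene.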

How the data were processed

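DU145 libraries (3 control, 3 TAX) were compared from 1 table per library. The authors deposited 1 value per gene, taken here as FPKM because the values are decimals with unequal sums and 3130 identifiers carry the MSTRG prefix of StringTie; the unit itself is not named. The submitters' processing notes name HISAT2 2.2.0, StringTie 2.1.2 and GRCh38, without roles. Annotation, filters and strand setting are not given in the sources used here. Low values were not in steps of whole reads (at most 12.4% of log2 ratios in a bin 0.1 wide), so depth is unknown and no counting error can be given.

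log2(FPKM + 1) was fitted for the 12359 genes that reached 1 FPKM in 3 or more libraries with limma 3.58.1 (R 4.3.3, eBayes with trend, no covariate, Benjamini-Hochberg adjustment over all genes tested), and the fit was tested on simulated data. Genes below the filter were added in a second fit. Exact permutation tests (scipy 1.17.1) were two-sided. The 9 genes and all lists were chosen with earlier results of these data known. Named pathway genes were those with an adjusted p under 0.05, the 12 or fewer with the smallest unadjusted p under 0.05, and a few fixed by name, among them VLDLR, LRP8, SREBF1 and the RXR genes. Some results are not reported here. The 3 profiles nearest to ABCA1 were named by the same plan. SOAT2, CH25H, the genes listed at 0 and the overlapping genes were named after their values were seen, as were CD68 and the other markers given singly. Gene overlaps are from GENCODE 29 (GRCh38). Alternatives were a pseudocount of 0.1, a lower or no filter, 2 normalizations, limma without trend, a replicate block and leaving out each library.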

Additional observations from a re-analysis of the deposited data

How the results depend on the processing

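In all 13 alternatives 0 of the 9 genes had an adjusted or an unadjusted p under 0.05 (limma), and the smallest of their p-values was 0.0871 (LPCAT3), with adjusted p-values from 0.496 upwards. Their log2 fold changes stayed between -0.17 and 0.20, and each of the 9 genes changed sign at least once (25 of 117 values, none larger than 0.089 in size). With quantile normalization the values that changed sign were -0.065 (NR1H2), 0.089 (ABCG1), -0.0078 (SMPDL3A), -0.059 (SOAT1), -0.021 (RXRA), -0.044 (SREBF1) and -0.055 (LRP8). With median centring they were -0.053 (NR1H2), -0.046 (ABCA1), -0.031 (SMPDL3A), -0.054 (SOAT1), -0.023 (RXRA), -0.047 (SREBF1) and -0.045 (LRP8). Among the 9 genes LPCAT3 and MYLIP lay furthest from 0 in both settings and kept their sign. Their values were -0.150 and -0.133 with quantile normalization, and -0.147 and -0.148 with median centring. Both settings move the median of all genes from 0.054 to about 0 by construction. Leaving out each library in turn gave -0.095 to 0.058 for NR1H3, -0.071 to 0.10 for NR1H2, -0.042 to 0.087 for ABCA1, -0.040 to 0.20 for APOE, -0.16 to 0.019 for MYLIP, -0.052 to 0.10 for SMPDL3A, -0.17 to 0.0052 for LPCAT3 and -0.063 to 0.082 for SOAT1. For other genes it gave -0.030 to 0.11 (RXRA), -0.10 to 0.085 (SREBF1), -0.013 to 0.18 (VLDLR) and -0.047 to 0.10 (LRP8).

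Of all tested genes, 59 had an adjusted p under 0.05. This count was 37 with a filter of 0.1 FPKM, 1 with no filter, 95 with quantile normalization, 96 with median centring and 18 (without TAX replicate 2) to 43 (without control replicate 2) with 1 library left out. The cause was not tested. The 6 pathway genes with an unadjusted p under 0.05 became 2 (without TAX replicate 2) to 9 (without control replicate 3) with 1 library left out. With the replicate block 26 genes passed the adjusted threshold, along with 0 of the 9 genes, and 4 pathway genes had an unadjusted p under 0.05, without TBL1XR1 (0.0944) and ACSL3 (0.0827). No sign of pairing by replicate number was seen, since the deviations of same-numbered libraries correlated at -0.12, -0.33 and -0.17. In addition, 0 of 3 numbers matched best with themselves. The labels do not say whether the samples were paired, and correlations over 3 libraries per group cannot decide it. The counts of SREBP2 targets under alternatives (9 to 18, against 13) were added after seeing the data. For ABCG1, ABCA1, APOE and NR1H3, at or below about 2 FPKM, the added 1 narrows the intervals and draws the log2 fold changes toward 0. With 3 libraries per group and unknown depth, changes inside the intervals are compatible with the values.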
